A study of Mus musculus with 8 samples.

Results

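The genes described here are the transforming growth factor beta (TGF-beta) ligands Tgfb1, Tgfb2 and Tgfb3, the receptors Tgfbr1 and Tgfbr2, the signal transducer Smad3, the feedback regulators Smad7 and Skil, and the target Tgfbi. They were chosen by name, and all 9 were found among the 55492 genes of the deposited tables. RNA was measured in 8 libraries of Yumm5.2, a mouse cell line of labelled strain C57B/6J. The line is known as a melanoma line driven by mutant Braf with loss of Trp53, which both groups share. Cultures had 4-OI (4 libraries) or the solvent DMSO as reagent control (4 libraries) for 20 h, at a dose not given in the sources used here. In this field 4-OI stands for 4-octyl itaconate, a cell-permeable ester of itaconate, and the labels describe the treatment as permeable itaconate. The comparison asks which transcripts of the pathway differ between cells given 4-OI and cells given DMSO. A single line was used and no source says that the cultures were started separately, so the p-values speak for the spread among these libraries, which may be technical.

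TGF-beta ligands are secreted as latent complexes, held in the matrix by LTBP proteins, and act after release on a pair of receptor kinases. TGFBR2 binds the ligand and activates TGFBR1, which phosphorylates SMAD2 and SMAD3. These join SMAD4 and enter the nucleus to regulate genes, among them those of the inhibitors SMAD7 and SnoN (the product of Skil), which close feedback loops. In melanoma the pathway is known for restraining growth early and for promoting matrix deposition and a mesenchymal, invasive state later.

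Among the 9 genes, 4 fell with 4-OI (Tgfb2, Smad7, Skil and Tgfbi), 1 rose (Tgfb1), and 4 did not pass the test (Tgfb3, Tgfbr1, Tgfbr2 and Smad3). The 2 largest changes were those of Tgfbi, which fell by 25.3%, and Tgfb2, which fell by 24.2%. These calls used edgeR's quasi-likelihood test with Benjamini-Hochberg adjustment over the 13531 genes that passed the filter on low counts (all 9 did) and a threshold of 0.05. That test called 38.8% of all genes tested, 19.3% higher and 19.6% lower, and 55.6% of the 9 genes, 11.1% higher and 44.4% lower. In CPM (counts scaled to the library total after TMM adjustment), the groups did not overlap for 4 of the 9 genes (44.4%), against 35.4% of all genes tested. The median log2 fold change was -0.06 for the 9 genes and 0.00 for all genes tested, and the median absolute log2 fold change was 0.10 and 0.12. With 5 of 9 genes called where 38.8% of all genes were, the number of calls is not read as a result about these genes.

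Total counts ranged from 25664999 to 31185027 in the 4-OI libraries and from 22962963 to 31361677 in the DMSO libraries. Of 8 melanocytic markers, 7 were below the filter on low counts: Tyr, Tyrp1, Dct, Mlana and Sox10 had at most 2 counts in any library, Ednrb at most 4 and Pmel at most 8. The exception was Mitf, at 3.45 TPM with 4-OI and 2.29 TPM with DMSO on average (TPM, the authors' share of transcripts, takes transcript length into account). Transcripts that define pigment cells were thus at or near 0 in a line known as melanoma. Fibroblast markers were split: 3 of 7 (Pdgfra, Pdgfrb and Col6a3) were well expressed, and the others were below the filter. Thy1 had at most 1 count in any library, Dpt at most 3 and Pi16 5 to 9. The summed fibroblast marker level, nearly all from Pdgfra, Pdgfrb and Col6a3, was 85.5 to 89.8 TPM in 4-OI libraries and 113 to 129.7 TPM in DMSO libraries. Lum was at 0 in all 8. None of 7 immune and none of 5 endothelial markers passed the filter, with summed levels of at most 0.42 TPM for immune and 0.24 TPM for endothelial markers with 4-OI, and 0.23 and 0.90 TPM with DMSO. Adgre1, Lyz2 and Kdr were at 0 in all libraries. Of 5 keratinocyte markers only Krt10 passed, and their summed level was 3.04 to 4.49 TPM with 4-OI and 2.73 to 3.87 TPM with DMSO.

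On the TPM scale Skil had the highest level and Tgfb2 the lowest in both groups. In 4-OI libraries the order of mean TPM was Skil (31.8), Tgfb1 (25.4), Tgfbr2 (20.8), Smad3 (20.4), Tgfbi (16.9), Tgfbr1 (15.7), Tgfb3 (14.2), Smad7 (13.0) and Tgfb2 (2.06). In DMSO libraries it was Skil (34.0), Tgfb1 (23.6), Tgfbi (22.5), Tgfbr2 (20.1), Smad3 (20.0), Smad7 (15.7), Tgfbr1 (15.7), Tgfb3 (14.7) and Tgfb2 (2.70). Tgfbi stood below Tgfbr2 and Smad3 with 4-OI and above both with DMSO, where its TPM range overlapped that of Tgfb1. With 4-OI the neighbours Tgfbr2 and Smad3, Tgfbi and Tgfbr1, Tgfbr1 and Tgfb3, and Tgfb3 and Smad7 overlapped in range, so their order is not resolved. With DMSO the same held for Tgfb1 and Tgfbi, Tgfbr2 and Smad3, Smad7 and Tgfbr1, and Tgfbr1 and Tgfb3. The mean TPM of Skil exceeded that of 66.9% of the genes tested and that of Tgfb2 exceeded 20.4%, with the other 7 genes between 47.4% and 60.1%.

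**Figure D1:**
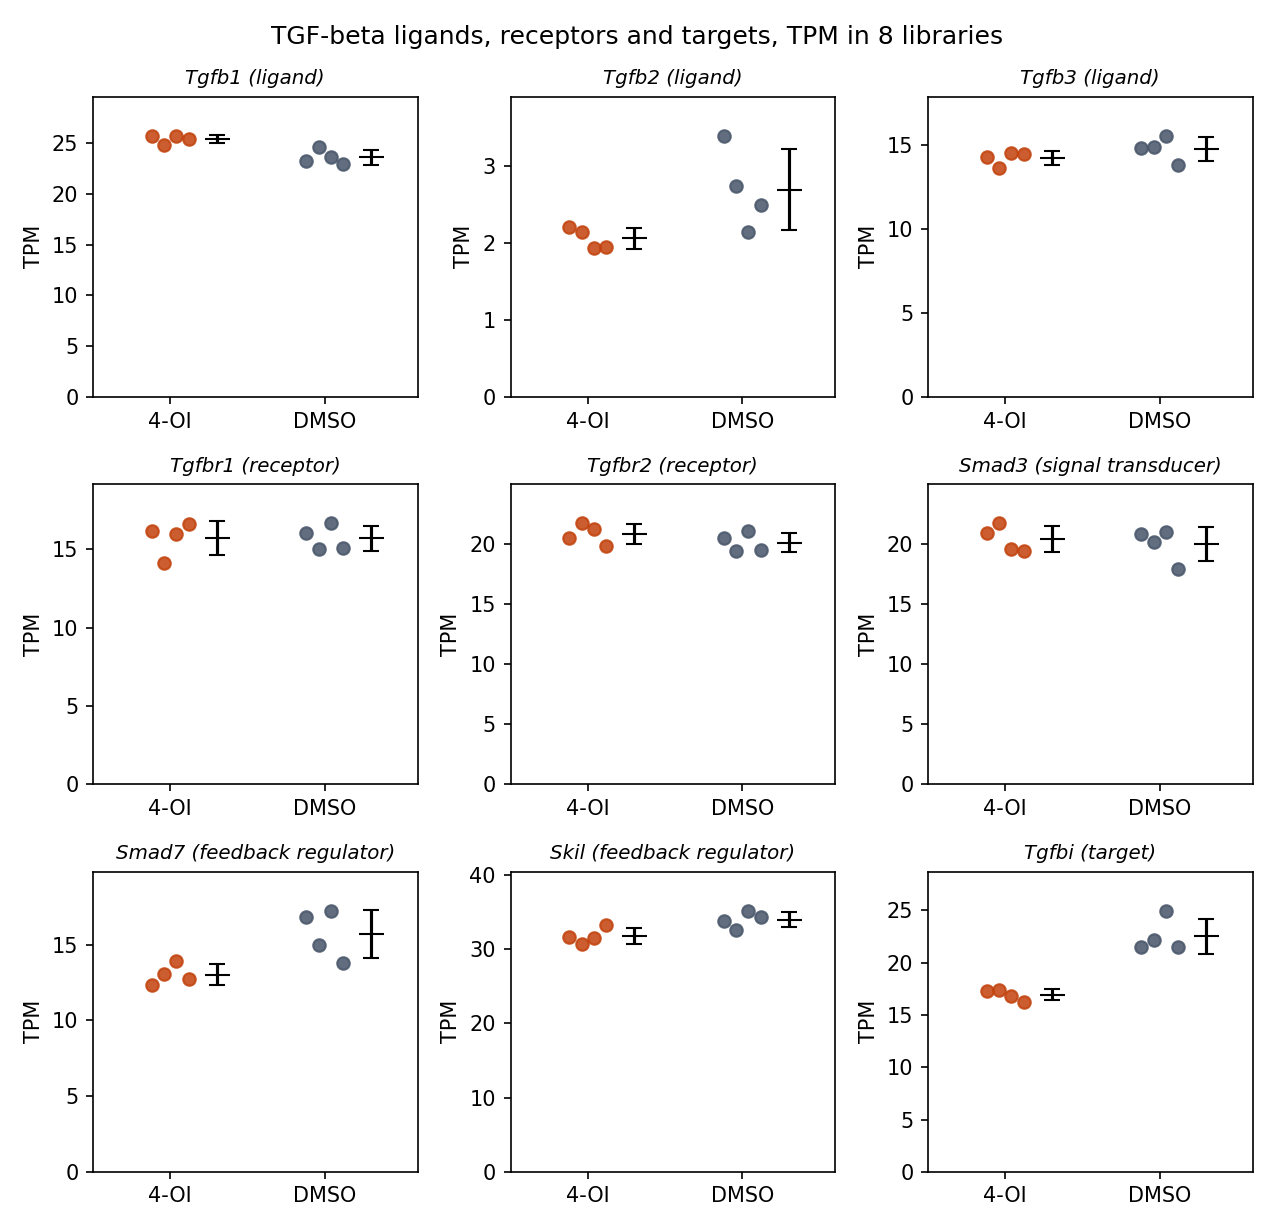
TPM of each of the 9 genes (y axis, from 0) in 4 libraries with 4-OI (orange, left) and 4 with DMSO (grey, right). Points are libraries, and bars are the mean ± SD (n = 4). Tgfbi libraries lay between 16.2 and 17.4 TPM with 4-OI and between 21.5 and 25.0 TPM with DMSO, while the receptor genes overlapped.

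Of the ligands, Tgfb2 fell (GRCm38 chromosome 1, 186622792 to 186705989, minus strand). Its normalised level was 6.14, 6.24, 6.26 and 6.19 CPM in the 4-OI libraries and 8.80, 8.53, 6.98 and 8.33 CPM in the DMSO libraries. All 4-OI libraries lay below all DMSO libraries, and DMSO replicate 3 was the nearest to them. On the log2 scale the change was -0.40 ± 0.08 (standard error, edgeR adjusted p = 0.000386), larger in size than that of 87.7% of the genes tested. These values rest on 159 to 193 counts per 4-OI library and 159 to 260 per DMSO library, where counting error alone is 6.20% to 7.93%. On the log2(TPM + 1) scale the change was smaller, -0.26, and limma did not call it (adjusted p = 0.0854). With log2(FPKM + 1) it was -0.23 (limma adjusted p = 0.0829). In the TPM values DMSO replicate 3 (2.15) was below 4-OI replicate 1 (2.21), so the groups overlapped there.

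The promoter of Tgfb2 is shown with that of Tgfbi, the other of the 2 genes with the largest fall. Each sequence runs from 250 bases before to 50 bases after the RefSeq start site (GRCm38.p6), 5′ to 3′ on the gene's strand, and capitals mark a match to the SMAD box CAGACA.
Tgfb2 (chr1:186705940-186706239, minus strand): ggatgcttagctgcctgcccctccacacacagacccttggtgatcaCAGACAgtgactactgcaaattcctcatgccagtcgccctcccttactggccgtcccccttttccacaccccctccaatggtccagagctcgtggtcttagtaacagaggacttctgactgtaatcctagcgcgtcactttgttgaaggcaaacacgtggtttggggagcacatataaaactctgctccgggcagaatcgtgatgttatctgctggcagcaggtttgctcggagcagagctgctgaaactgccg
Tgfbi (chr13:56609336-56609635, plus strand): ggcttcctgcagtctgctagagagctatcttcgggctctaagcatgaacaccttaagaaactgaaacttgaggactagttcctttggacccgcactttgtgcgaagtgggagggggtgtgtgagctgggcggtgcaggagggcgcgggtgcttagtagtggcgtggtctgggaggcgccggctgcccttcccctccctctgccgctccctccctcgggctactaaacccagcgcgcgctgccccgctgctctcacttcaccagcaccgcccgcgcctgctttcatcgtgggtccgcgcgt
The match in Tgfb2 begins at position -204 from the start site. On both strands, CAGACA occurred in 21.0% of 32851 RefSeq promoters of this length, the AP-1 letters TGAGTCA in 5.2% and the antioxidant response element core TGACNNNGC in 12.4%. RefSeq promoters were matched for 6 of the 9 genes (Tgfb1, Tgfb2, Tgfbr1, Tgfbr2, Smad3 and Tgfbi). Besides Tgfb2, CAGACA was found at -203 of the second Tgfbr1 promoter. The TGACNNNGC core was found, on the strand opposite to the gene's, at -214 of the first Tgfbr1 promoter and at -192 of the Tgfbr2 promoter. TGAGTCA was in none of these windows, and the Tgfb1, Smad3 and Tgfbi windows held none of the 3 motifs. These matches describe letters only.

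Tgfb1, the most abundant ligand transcript (chromosome 7, 25687002 to 25705077, plus strand), was slightly higher with 4-OI. It had 34.9, 33.3, 34.7 and 34.7 CPM in the 4-OI libraries and 31.2, 32.3, 32.7 and 31.6 CPM in the DMSO libraries. The groups did not overlap, although 4-OI replicate 2 and DMSO replicate 3 were close. This is a log2 fold change of 0.11 ± 0.04 (standard error, edgeR adjusted p = 0.0339), or a level 7.74% higher. The call ended without 4-OI replicate 1, 3 or 4 or DMSO replicate 1, 2 or 4 (edgeR adjusted p = 0.0558 to 0.0903), and DESeq2 did not make it (adjusted p = 0.0841). It also ended with no filter on low counts (edgeR adjusted p = 0.0532) and with limma on log2(TPM + 1) (adjusted p = 0.0619), so this rise is at the edge of what 4 libraries per group can resolve.

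Tgfb3 (chromosome 12, 86056745 to 86079041, minus strand) was not called. It had 32.0, 30.3, 32.7 and 32.5 CPM with 4-OI and 33.0, 33.5, 35.2 and 31.5 CPM with DMSO, and the groups overlapped. Its log2 fold change was -0.06, with a 95% interval from -0.15 to 0.03 (edgeR adjusted p = 0.308). The last 5149 bases of its span overlap Ttll5 on the opposite strand, and no source used here gives the strand setting of the authors' counting. Ttll5 had 874 to 1087 counts with 4-OI and 855 to 1084 with DMSO (log2 fold change -0.02, edgeR adjusted p = 0.802). Reads in the shared stretch may not be told apart.

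The make-up of the ligand transcripts showed the same decreasing order in every library, Tgfb1, Tgfb3 and Tgfb2. Tgfb1 took 60.8%, 61.2%, 61.0% and 60.8% of the summed ligand TPM in the 4-OI libraries and 56.1%, 58.3%, 57.2% and 58.4% in the DMSO libraries. All 4-OI values were above all DMSO values, a mean difference of 3.46 percentage points. Tgfb3 took 34.1% ± 0.45 with 4-OI and 35.9% ± 1.14 with DMSO (SD, n = 4), again without overlap but in the other direction. Tgfb2 took 4.95% ± 0.37 with 4-OI and 6.58% ± 1.24 with DMSO, and here the groups overlapped at DMSO replicate 3 (5.20%). The two-sided exact permutation test gave p = 0.0286 for the shares of Tgfb1 and of Tgfb3, the smallest that 4 against 4 libraries allow, and p = 0.0857 for Tgfb2. Adjusted by Benjamini-Hochberg over these 3 shares and the receptor ratio, exact permutation p-values were 0.0571 for Tgfb1, 0.0571 for Tgfb3 and 0.114 for Tgfb2, so no share passed 0.05. With 0.0286 as the smallest p, this adjustment could not pass 0.05 unless Tgfb2 or the receptor ratio reached that value too. Without DMSO replicate 3 Tgfb2 reached it (exact permutation p = 0.0286), and all 3 shares then passed (exact permutation adjusted p = 0.0381 each). The differences were 3.36 points for Tgfb1, -1.28 for Tgfb3 and -2.08 for Tgfb2. The 3 shares are parts of a whole, so they are not separate results.

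**Figure D2:**
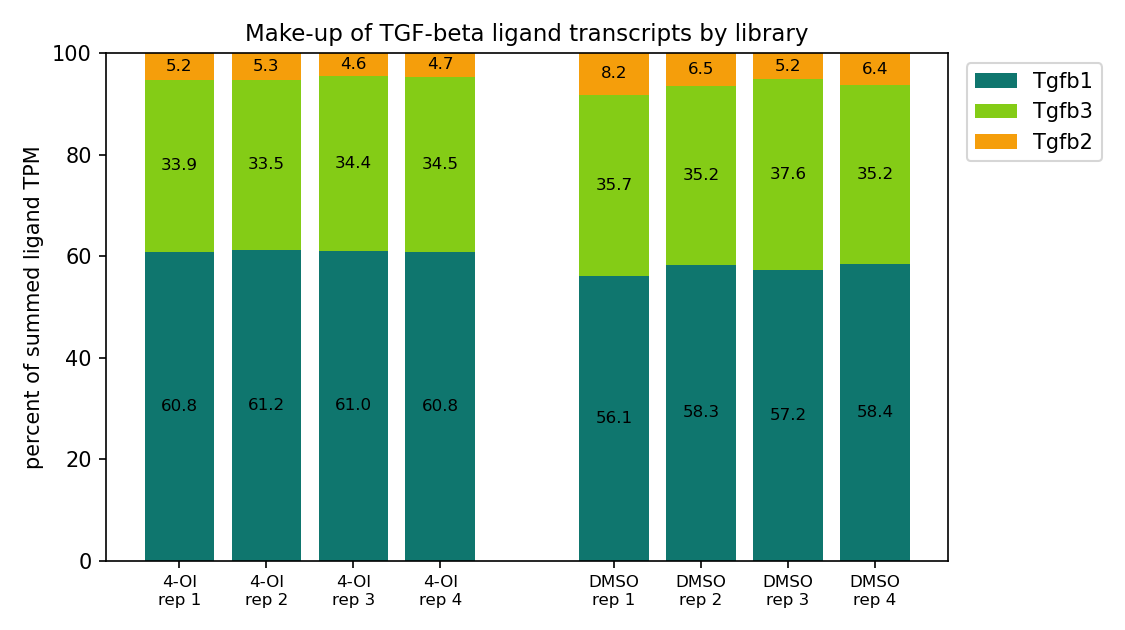
Share of the summed TPM of Tgfb1, Tgfb2 and Tgfb3 (y axis, percent) taken by each ligand in the 4 libraries with 4-OI (left) and the 4 with DMSO (right). Numbers in the bars are percentages. Tgfb1 took 60.8% to 61.2% with 4-OI and 56.1% to 58.4% with DMSO.

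Neither receptor gene passed the test. Tgfbr1, the kinase that phosphorylates SMAD2 and SMAD3 (chromosome 4, 47353222 to 47414931, plus strand), had 54.5, 49.0, 54.6 and 57.3 CPM with 4-OI and 54.6, 50.7, 52.8 and 53.5 CPM with DMSO. Both the highest and the lowest library were 4-OI libraries. The log2 fold change was 0.03 with a 95% interval from -0.06 to 0.11 (edgeR adjusted p = 0.669). Tgfbr2, which binds the ligand (chromosome 9, 116084293 to 116175360, minus strand), had 63.0, 65.5, 65.2 and 61.1 CPM with 4-OI and 62.3, 61.4, 64.2 and 61.3 CPM with DMSO. The groups overlapped, and the log2 fold change was 0.03 with an interval from -0.03 to 0.10 (edgeR adjusted p = 0.457). On the log2 scale, the intervals of both receptor genes end at or below 0.11. The TPM ratio of Tgfbr2 over Tgfbr1 was 1.33 ± 0.15 with 4-OI and 1.28 ± 0.01 with DMSO (SD, n = 4, two-sided exact permutation p = 0.686, adjusted p = 0.686). 4-OI replicate 2, with the lowest Tgfbr1 level, had the highest ratio, 1.53.

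Smad3, the transcription factor that carries the receptor signal to DNA (chromosome 9, 63646767 to 63757994, minus strand), was not called either. It had 62.9, 69.2, 64.2 and 63.5 CPM with 4-OI and 61.7, 61.3, 63.3 and 62.1 CPM with DMSO. The groups overlapped only at DMSO replicate 3, and 4-OI replicate 2 was the highest library. Its log2 fold change was 0.07, with a 95% interval from -0.01 to 0.14 (edgeR adjusted p = 0.137).

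Both feedback regulators fell. Smad7, which encodes the inhibitory SMAD that blocks and helps degrade the receptors, had 34.4, 35.1, 34.6 and 33.1 CPM with 4-OI and 43.3, 41.6, 42.6 and 39.1 CPM with DMSO. All 4-OI libraries lay below all DMSO libraries in CPM, whereas in TPM 4-OI replicate 3 (14.0) was above DMSO replicate 4 (13.8). This was a log2 fold change of -0.28 ± 0.04 (standard error, edgeR adjusted p = 1.63e-05), and the level fell by 17.5%. The call held with each library left out and in all other fits tried, with adjusted p up to 0.0359 for limma on FPKM.

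Skil encodes SnoN, a nuclear repressor of SMAD complexes (chromosome 3, 31095058 to 31122577, plus strand), and was the most abundant of the 9 transcripts. It had 119.6, 113, 124.4 and 120.5 CPM with 4-OI and 129, 123.9, 134 and 126 CPM with DMSO. The groups overlapped slightly, since 4-OI replicate 3 was above DMSO replicate 2. A log2 fold change of -0.10 ± 0.03 was fitted (standard error, edgeR adjusted p = 0.0137). The call ended without 4-OI replicate 2 (edgeR adjusted p = 0.0585) or DMSO replicate 3 (0.0547), and limma did not make it on log2(TPM + 1) (adjusted p = 0.0962) or log2(FPKM + 1) (adjusted p = 0.137).

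Tgfbi, a secreted matrix protein named for its induction by TGF-beta (chromosome 13, 56609523 to 56639562, plus strand), fell with 4-OI, as Tgfb2 did, and their order in size is not resolved. It had 30.3, 30.7, 29.7 and 29.0 CPM with 4-OI and 37.7, 39.7, 44.6 and 38.5 CPM with DMSO. The highest 4-OI library was well below the lowest DMSO library, and DMSO replicate 3 stood highest of all. Its log2 fold change was -0.42 ± 0.05 (standard error, edgeR adjusted p = 7.77e-07), and 88.7% of the genes tested changed less. The call held in every fit tried, and without DMSO replicate 3 the log2 fold change was -0.37 for Tgfbi and -0.46 for Tgfb2. In bulk RNA such a fall can come from fewer expressing cells or from less RNA per cell, which cannot be told apart.

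**Figure D3:**
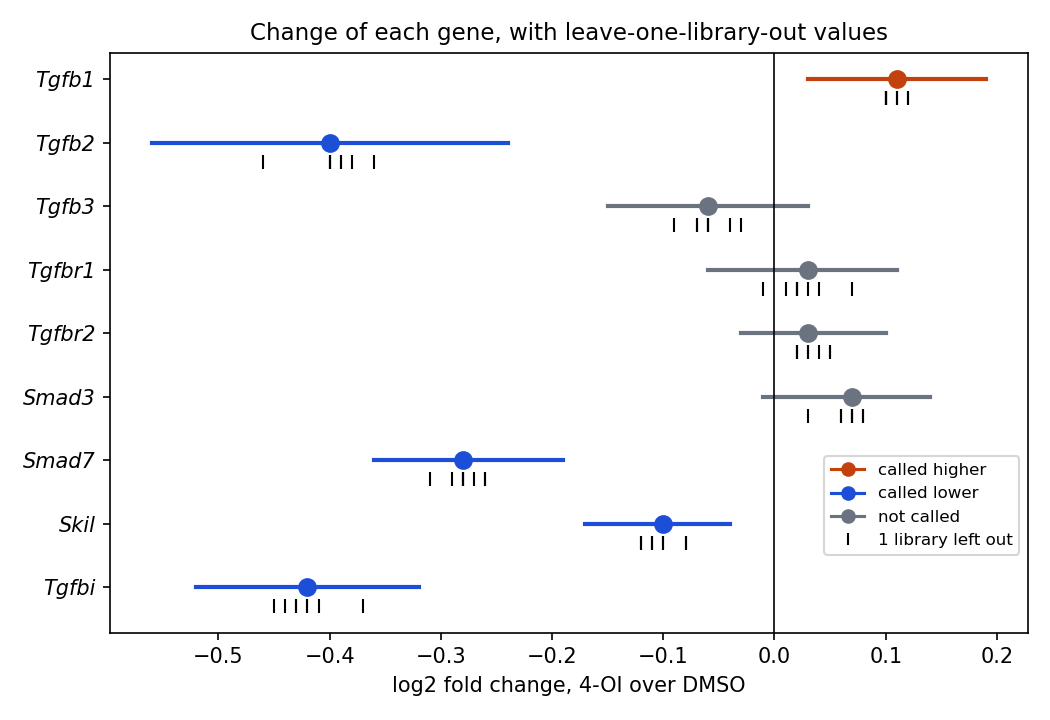
Log2 fold change (x axis, 4-OI over DMSO) of the 9 genes from the edgeR fit, with 95% intervals as lines, and in black ticks the values with 1 library left out at a time. Tgfbi, Tgfb2, Smad7 and Skil lay below 0 with their whole interval, Tgfb1 above 0, and the intervals of Tgfb3, Tgfbr1, Tgfbr2 and Smad3 crossed 0.

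The genes with the pattern most like these were taken from 10058 other genes at a mean of 5 CPM or more, by the root mean square difference of log2 CPM, set to the DMSO mean, over the 8 libraries. For Tgfbi they were the collagen VI chain gene Col6a1 (difference 0.03, log2 fold change -0.43) and the complement protease gene C1ra (0.03, -0.46). For Smad7 they were Nfix, a transcription factor of the nuclear factor I family (0.02, -0.28), and Babam2 (0.03, -0.25). For Tgfb2 no gene came as close, and the nearest were Megf10 (0.06, -0.36) and Tfap2b, an AP-2 transcription factor (0.06, -0.35). Tgfb2 had only 159 to 260 counts per library, with a counting error of 6.20% to 7.93%, which limits how close any gene can come. The part of this error in the distance was not tested.

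Around these 9 genes, 116 other genes of the pathway and its relatives were listed by role, and 105 of them could be tested. Of these, 53 were lower (50.5%) and 11 higher (10.5%), set beside 19.6% and 19.3% of all genes tested. The median log2 fold change of the 105 genes was -0.13. The lists were drawn up with earlier results of these data known, so their counts describe and do not support. The balance differed between lists: 13 of 16 matrix and contractile genes and 2 of 14 SMADs and nuclear partners were lower, a contrast that was not tested.

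Among genes that hold or release latent TGF-beta, 12 of 21 were lower (57.1%) and 3 higher (14.3%), against 19.6% and 19.3% of all genes tested. The list's median log2 fold change was -0.18. Mmp9, a protease that can release the ligand, had 4.60 ± 0.19 CPM with 4-OI and 8.94 ± 0.62 CPM with DMSO (SD, n = 4). Dcn and Bgn, small proteoglycans that bind the ligand, had log2 fold changes of -1.39 and -0.99, at 0.68 and 1.59 CPM with 4-OI and 1.78 and 3.17 CPM with DMSO. Itgb8, an integrin chain that activates the latent complex (0.37), Emilin1 (0.23) and the latent binding protein gene Ltbp3 (0.22) were the members that rose. Adjusted p-values of the called genes in this list were at most 0.0019 (edgeR).

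Of 16 co-receptors and receptor regulators, 10 were not called, and the share called (37.5%) was near the 38.8% of all genes tested. The list's median log2 fold change was -0.04. The members that fell were Bambi, a pseudoreceptor (-0.29), Smurf1, a ubiquitin ligase that acts on receptors and SMADs (-0.22), Eng (-0.11), Fkbp1a (-0.11) and Strap (-0.07), and the member that rose was Vasn (0.14). Their edgeR adjusted p-values ran from 1.82e-06 (Smurf1) to 0.0384 (Strap). Of 14 SMADs and nuclear partners, 10 were not called, and 28.6% were called, against 38.8% of all genes tested. Ski, the relative of Skil, fell with 95.2 ± 4.48 CPM with 4-OI and 113 ± 0.93 CPM with DMSO (SD, n = 4, log2 fold change -0.24, edgeR adjusted p = 2.48e-06), and Smad5 fell by 0.08 on the log2 scale. Tgif1, another SMAD corepressor, rose with 97.4 ± 1.66 CPM with 4-OI and 81.5 ± 2.37 CPM with DMSO (0.26, edgeR adjusted p = 4.78e-07), as did the phosphatase gene Ppm1a (0.07). Smad2 (-0.07) and Smad4 (-0.03), the partners of SMAD3, were not called (edgeR adjusted p = 0.0702 and 0.437).

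Of 18 other genes known to be induced by TGF-beta, 9 were lower and 3 higher, against 19.6% and 19.3% of all genes tested. For these 18 genes the median log2 fold change was -0.24. Snai2, a transcription factor of the mesenchymal state, had 20.3 ± 0.70 CPM with 4-OI and 33.2 ± 2.24 CPM with DMSO (SD, n = 4, log2 fold change -0.70). Rgcc had a log2 fold change of -0.83 at 1.21 ± 0.30 CPM with 4-OI and 2.17 ± 0.54 CPM with DMSO. Its groups overlapped, with 20 to 44 counts per 4-OI library and 37 to 71 per DMSO library. Klf11, a zinc finger factor, moved the other way, with 11.5 ± 0.37 CPM with 4-OI and 5.08 ± 0.67 CPM with DMSO (1.17). The cell cycle inhibitor gene Cdkn2b (0.37) also rose. All of these had edgeR adjusted p-values of 0.00391 or less.

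The matrix and contractile list had 13 of 16 genes lower and none higher, against 19.6% and 19.3% of all genes tested (median log2 fold change -0.46). Postn, a matrix protein of the same family as Tgfbi, had 5.02 ± 0.14 CPM with 4-OI and 13.4 ± 0.73 CPM with DMSO (SD, n = 4, log2 fold change -1.41). Col1a1, a type I collagen chain, had 7.75 ± 0.57 CPM with 4-OI and 20.3 ± 0.84 CPM with DMSO (-1.39), and Acta2, smooth muscle actin, had a log2 fold change of -0.66. Fn1 (0.02), Col4a1 (0.00) and Col4a2 (-0.02) were not called. The fibroblast markers Pdgfrb and Col6a3 were lower in level too, with 14.1 and 40.2 TPM with 4-OI and 19.5 and 68.5 TPM with DMSO, while Pdgfra had 32.3 TPM with 4-OI and 31.3 TPM with DMSO, and the part of these markers in the falls was not tested. In the BMP and activin branch 12 of 20 genes were lower and 2 higher, against 19.6% and 19.3% of all genes tested. The lower genes included Bmp2 (-1.07) and the BMP antagonist gene Grem1 (-0.74). The higher genes were Bmp6 (0.95) and the receptor gene Acvr2a (0.27). The list's median log2 fold change was -0.17, and these 4 genes had edgeR adjusted p-values of at most 0.00018.

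**Figure D4:**
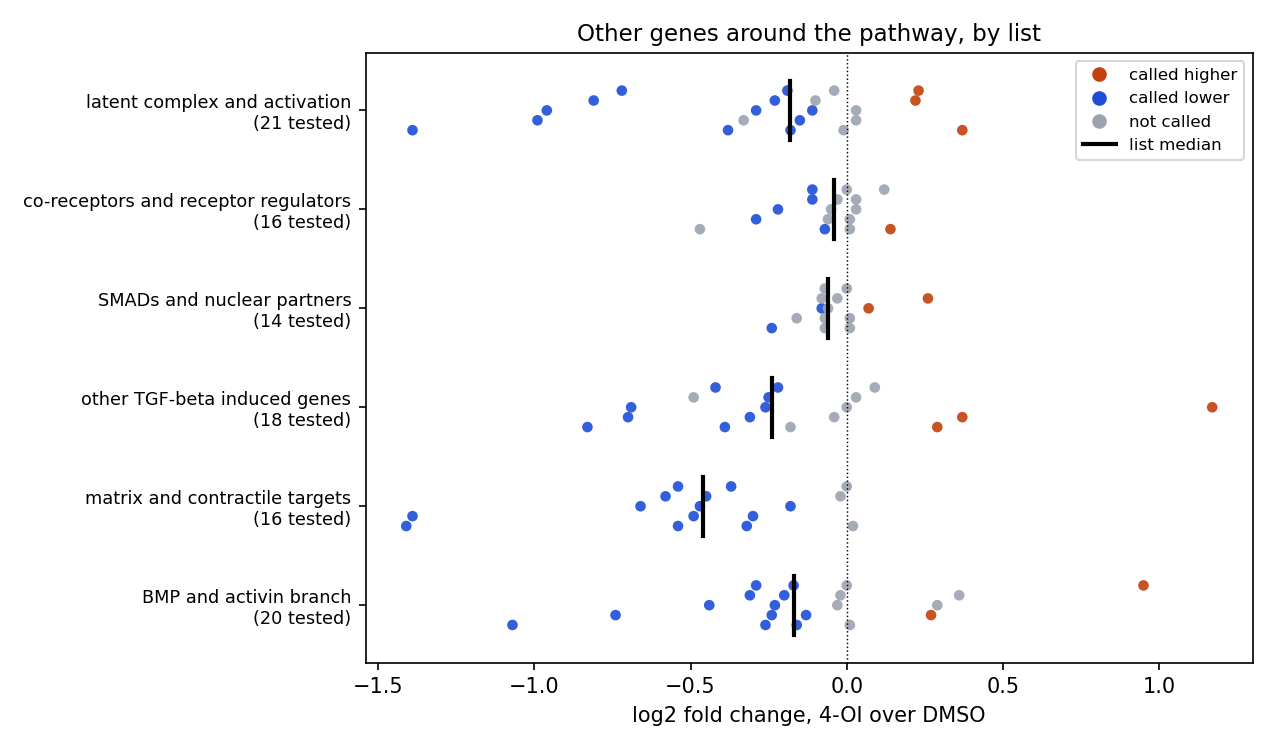
Log2 fold change (x axis, 4-OI over DMSO) of the 105 other pathway genes tested, in rows by list, with orange for called higher, blue for called lower and grey for not called, and a black bar at each list's median. The list medians ran from -0.46 for matrix and contractile targets to -0.04 for co-receptors and receptor regulators.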

How the data were processed

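RNA of 8 Yumm5.2 libraries (polyA RNA, TruSeq chemistry, paired-end NextSeq reads per the labels) was grouped by sample titles, and columns were matched by sample descriptions. The submitters' processing notes name STAR 2.7.8a, RSEM 1.3.3, cutadapt 2.3, MultiQC 1.7 and FastQC 0.11.8 and the build GRCm38. No source used here gives the annotation release or strand setting. The authors deposited expected counts (whole numbers in every cell, used as they are), TPM and FPKM for each gene.

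From the counts, edgeR 4.0.16 (R 4.3.3) was run with filterByExpr (minimum count 10), TMM scaling and the quasi-likelihood F test (two-sided) on 13531 genes, with calls below 0.05 after Benjamini-Hochberg adjustment. CPM values use TMM-scaled totals. Standard errors and 95% intervals follow from the F statistic. TPM and FPKM were tested with limma 3.58.1 on log2(value + 1), which understates changes of low genes. DESeq2 1.42.0, other filters and scalings, a block and leaving out each library were alternatives. Variation between libraries beyond counting noise was low (edgeR common coefficient 3.1%), and whether it is biological or technical is not known. The chi-square per degree of freedom between replicate pairs was 1.89 to 4.8, above the sampling noise of 1, so no pair was merged as a library deposited more than once; this does not show separate cultures. Only the main edgeR fit and a limma fit of scaled counts were tested on simulated counts.

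The 9 genes and the 6 pathway lists were chosen with earlier results of these data known. Named genes are the 9, the 3 called genes of largest change per list at 1 CPM or more, counts of 5 or fewer spelled out, the marker genes, and the closest genes in pattern; Smad2 and Smad4 and the genes below the filter were named after their values were seen. Some genes of these lists are counted but not reported by name here. Positions are from GENCODE M21 and promoters from RefSeq, both on GRCm38.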

Additional observations from a re-analysis of the deposited data

Results flagged for a closer look

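Among 26 groups of 4 values checked (both groups for the 9 genes and for the 4 ligand and receptor mix values), 1 held a library far from the rest, where chance gives about 1 in 20. Tgfb1 had 33.3 CPM in 4-OI replicate 2 and 34.7 to 34.9 CPM in the other 4-OI libraries, a gap of 0.91 of the group's range. Without that library the log2 fold change of Tgfb1 was 0.12 (edgeR adjusted p = 0.0187).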

How the results depend on the processing

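The calls of Smad7 and Tgfbi, and the absence of a call for Tgfb3, Tgfbr1, Tgfbr2 and Smad3, were the same under every alternative run. Tgfb1 was no longer called with DESeq2 (0.11), no filter (0.12), limma on log2(TPM + 1) (0.10) or log2(TPM + 0.1) (0.11), or the replicate block (0.11, edgeR adjusted p = 0.0506), and ran from 0.10 to 0.12 with 1 library left out. Tgfb2 was not called with limma on log2(TPM + 1) (-0.26), log2(TPM + 0.1) (-0.35) or log2(FPKM + 1) (-0.23). Skil was not called on those scales (-0.10, -0.10 and -0.09) and ran from -0.12 to -0.08 with 1 library left out. The cause was not tested. The number of genes lower, 2646, became 1620, 1615 and 1535 with limma on log2(TPM + 1), log2(TPM + 0.1) and log2(FPKM + 1).

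Totals over the pathway lists stayed within 1.5 times. Co-receptor and regulator genes higher (1) became 2 with library totals or the GC and length correction and 0 with limma on TPM at either pseudocount, and 1 to 2 with a library left out. SMADs and partners higher (2) became 1 with limma on TPM (both pseudocounts) or FPKM and with the replicate block, and lower (2) became 1 with DESeq2, library totals, no filter, and limma on TPM (both) or FPKM. With a library left out, these ran from 1 to 2 and from 1 to 3. The differences in ligand share ran from 2.98 to 3.78 points for Tgfb1, -2.08 to -1.08 for Tgfb2 and -2.09 to -1.28 for Tgfb3.

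Replicate numbers did not pair the libraries throughout. Deviations from the group means correlated by 0.463, -0.065, 0.185 and -0.033 for numbers 1 to 4 over 10067 genes. Between unlike numbers the values ran from -0.332 to 0.27, so only number 1 was above all of them. With the replicate block 2526 genes were higher and 2618 lower, and among the 9 genes only the call of Tgfb1 changed. The GC and length correction, chosen after seeing the data, gave 2678 higher and 2896 lower, and with the block 2594 and 2806. Depth limits Tgfb2 most, at 159 counts in the shallowest libraries.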

Other observations

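Of the 116 other pathway genes, 11 were below the filter on low counts. Il11, a cytokine induced by TGF-beta, had 8 to 13 counts per library with 4-OI and 5 to 9 with DMSO. Itgb6, an integrin chain of epithelial cells that activates the latent ligand, had 0 to 4 counts in both groups, while Itgb8, the activating chain that rose, had 9.10 ± 0.49 CPM with 4-OI and 7.07 ± 0.57 CPM with DMSO (SD, n = 4). Chrd and Nog, which encode BMP antagonists, had 2 to 8 and 0 counts with 4-OI and 2 to 12 and 0 to 2 with DMSO. Bmp7 and Mstn had 0 counts in all 8 libraries.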
